A study of Homo sapiens with 6 samples.

Results

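The integrin and laminin genes of the A2780 ovarian carcinoma cell line were followed by RNA-Seq in WT cells and in a CDK12 KO clone. The set holds 37 genes, 26 integrin chains and 11 laminin chains, chosen by their symbols among the 60483 genes listed in the counts. WT libraries came from parental A2780 cells. KO libraries came from a single A2780 clone obtained after a second round of CRISPR/Cas9 transfection directed against exon 1 of CDK12, with a deletion in one allele and an insertion in the other, and with more chromosomes than the parental line. Both groups were grown in the same serum-containing medium with no drug, and each had 3 libraries. The labels do not say whether the libraries of a group came from separate cultures, so that p-values measure the spread between these libraries, which may be technical, and the loss of CDK12 cannot be told apart from other differences between this clone and its parental population.

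Integrins are receptors made of 1 alpha and 1 beta chain that hold cells to the surrounding matrix and connect it to the actin cytoskeleton. The alpha chain largely sets the ligand: some pairs bind laminin, some collagen, and some the RGD motif of fibronectin and vitronectin, while others are found mainly on leukocytes. Laminins are trimers of an alpha, a beta and a gamma chain and form the sheet of the basement membrane on which epithelial cells sit, together with collagen IV, nidogen and perlecan.

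Total counts ranged from 11098400 to 30899045 per library, and 3 counts corresponded to 0.1001 to 0.2701 CPM, the count scaled to the TMM-adjusted size of its library, a floor that covers counting error only. CDK12 itself had a mean of 115 ± 11.1 CPM in the parental cells and 98.05 ± 4.64 CPM in the clone (SD, n = 3, edgeR, adjusted p = 8.20e-04), a check of the labels that gene counts cannot make, since an edited transcript still gives reads. The cell type was checked on marker lists. Of 11 epithelial and ovarian carcinoma markers 5 were tested, while PAX8, WT1, KRT7, MUC16 and CLDN3 had at most 6 counts in any library, so that several usual markers of ovarian carcinoma were near absent. The epithelial keratin KRT18 was at 59.9 ± 1.96 CPM in WT and 103 ± 2.73 CPM in KO. KRT8 was also higher in KO, by 0.56 on the log2 scale (edgeR, adjusted p = 7.40e-06). CLDN4 was higher by 0.66 (edgeR, adjusted p = 0.0139), with groups that overlapped in CPM, whereas EPCAM fell from 3.19 ± 0.794 to 2.17 ± 0.0446 CPM (edgeR, adjusted p = 0.0119). The mesenchymal filament vimentin (VIM) was the strongest of the list. Of the 10 leukocyte markers, CD3D and MS4A1 were at 0 in all libraries and PTPRC, the common leukocyte antigen, had at most 2 counts. The summed level of the list was 24.9 to 29.3 CPM in WT and 9.28 to 9.95 CPM in KO and came mostly from CORO1A. CD14 was up-regulated from 0.374 ± 0.122 to 0.709 ± 0.241 CPM (edgeR, adjusted p = 0.0156), and LCP1 had a log2 fold change of 0.42 (edgeR, adjusted p = 0.282). CD14 was not called with voom/limma or DESeq2, or without KO replicate 2 or WT replicate 2. The call was also lost after thinning to the smallest total and with at least 10 counts in every library. The endothelial markers PECAM1 and CDH5 had at most 2 counts. In bulk RNA, fewer cells of a type and less RNA per cell cannot be told apart.

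Of the 37 genes, 23 had enough counts to be tested. The calls below required 2 things, an adjusted p below 0.05 in edgeR's quasi-likelihood test (Benjamini-Hochberg adjustment over 16198 genes) and a log2 fold change, KO over WT, above 1 (up-regulated) or below -1 (down-regulated). ITGA2, ITGA10, ITGB4, ITGB7 and LAMB3 were up-regulated, 5 of the 23 (21.7%), where 8.3% of all tested genes were. ITGAV, ITGB3 and LAMA1 were down-regulated, 3 of the 23 (13.04%), where 7.73% of all tested genes were. In all 8 of the 23 passed both thresholds, against 16% of all tested genes. At the adjusted p alone, 11 members were higher (31.9% of all tested genes) and 9 lower (32% of all tested genes), so that 20 of the 23 differed, against 63.9% of all tested genes. Most members thus differed between the groups, in both directions, with a median log2 fold change of 0.14, against 0.00 over all tested genes. The KO and WT values did not overlap for 20 of the 23, and for 66.4% of all tested genes. ITGA2, LAMB3 and ITGB3 had at most 5 counts per library in one group and passed the filter through the other, so that their presence among the tested genes already required a difference. For each single gene whose groups did not overlap, the exact permutation test of log2 CPM, two-sided, gave p = 0.1, the smallest that 3 libraries against 3 allow.

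**Figure D1:**
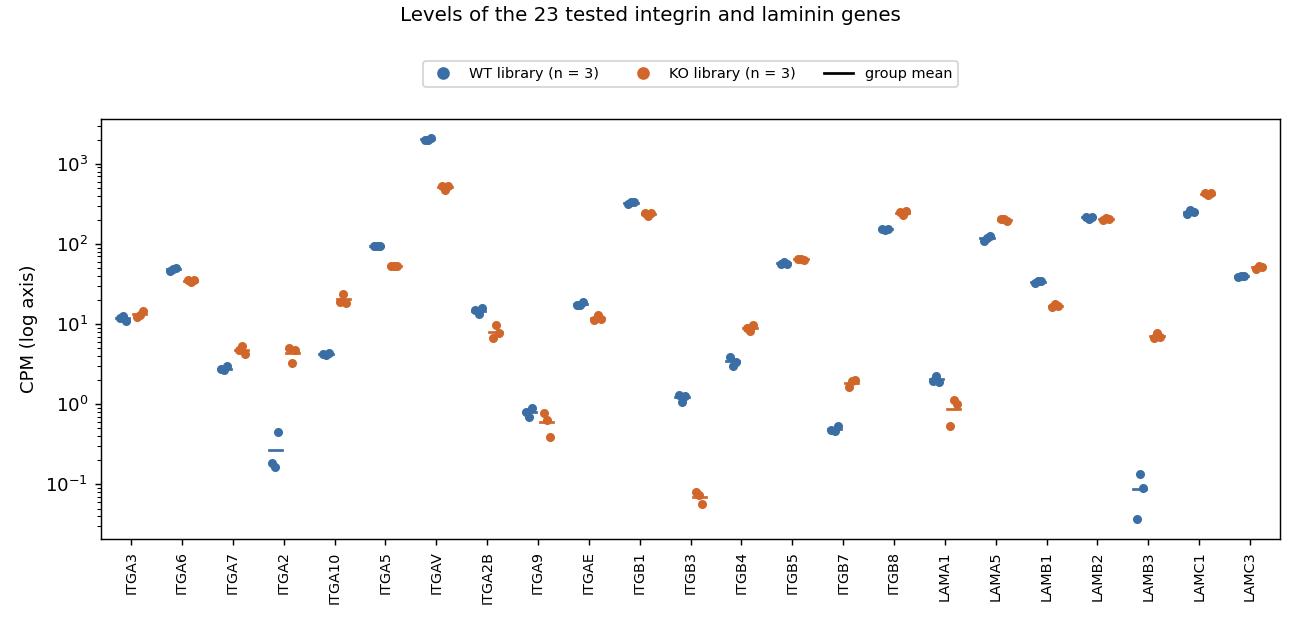
Level of each of the 23 tested integrin and laminin genes in CPM on a log axis, with a point per library, WT in blue and KO in orange, and a bar at each group mean. ITGAV stands highest in both groups, and LAMB3, ITGA2 and ITGB3 show the widest gaps between the groups.

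**Figure D2:**
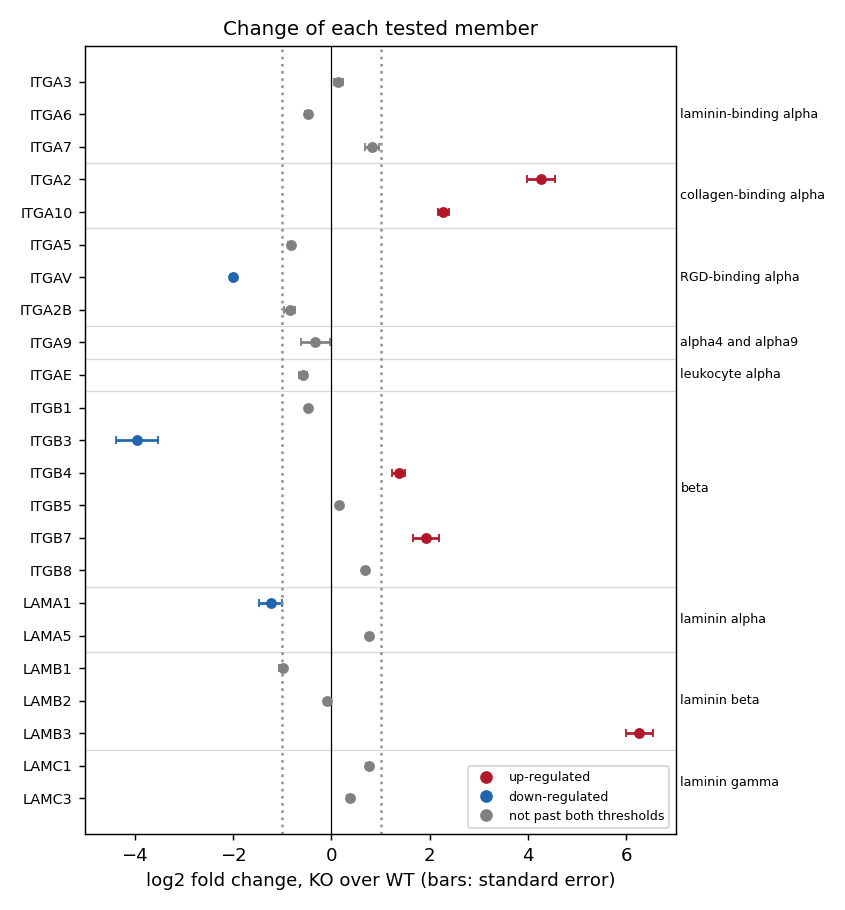
Log2 fold change, KO over WT, of the tested members with its standard error, ordered by the role of the chain. Dotted lines mark 1 and -1. Both tested collagen-binding alpha chains lie to the right of 1, and all tested RGD-binding alpha chains lie left of 0.

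The RGD-binding alpha chains were lower in KO. ITGAV, the αV chain that pairs with several beta chains to bind vitronectin and fibronectin and to activate TGF-β, was the integrin chain with the most counts. ITGAV (ENSG00000138448, chromosome 2, 186590010 to 186680901, plus strand, GRCh38) was at 2008, 1971 and 2086 CPM in the WT libraries and at 525.8, 472.5 and 520.7 CPM in the KO libraries. All KO libraries lay far below all WT libraries. The mean fell from 2022 ± 59.2 to 506 ± 29.4 CPM (SD, n = 3), a 3.99-fold lower level (log2 fold change -2.00, standard error, SE, 0.0524, edgeR, adjusted p = 9.00e-26). ITGA5, the α5 chain of the classical fibronectin receptor, fell from 93.95 ± 0.952 to 53.0 ± 0.288 CPM, a log2 fold change of -0.83 (edgeR, adjusted p = 1.39e-15), which did not reach the fold threshold. ITGA2B, the αIIb chain best known from platelets, fell from 14.7 ± 1.22 to 8.02 ± 1.49 CPM (log2 fold change -0.85, edgeR, adjusted p = 2.62e-08). Without KO replicate 2 its log2 fold change was -1.02, past the threshold. ITGA8 had at most 1 count in any library.

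The collagen-binding alpha chains that could be tested were higher in KO. ITGA2, the α2 chain of the collagen receptor of epithelial cells and platelets, had 5, 5 and 5 counts in WT and 124, 88 and 85 counts in KO. These counts correspond to 0.182, 0.167 and 0.450 CPM in WT and 5.05, 3.27 and 4.78 CPM in KO. The WT libraries were thus near the floor and the KO libraries clearly above it. The log2 fold change of ITGA2 was 4.26 (SE 0.291, edgeR, adjusted p = 2.22e-14), and the ratio of the summed levels was 19.6 with a 95% counting interval of 11.7 to 35.4, exact binomial. ITGA10, the α10 chain, known as a collagen II receptor of chondrocytes, was at 4.20, 4.14 and 4.41 CPM in WT and 18.8, 23.7 and 18.3 CPM in KO. KO replicate 2 was the highest, and no KO library came near a WT library. Its log2 fold change was 2.28 (SE 0.110, edgeR, adjusted p = 2.18e-18). ITGA1 and ITGA11 had at most 7 and 2 counts in any library and were not tested. ITGA1 lies just before ITGA2 on chromosome 5.

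The laminin-binding alpha chains differed in direction. ITGA6, the α6 chain, which pairs with ITGB1 or with ITGB4, fell from 48.2 ± 2.17 to 34.6 ± 1.04 CPM (log2 fold change -0.47, edgeR, adjusted p = 2.36e-08). ITGA7, the main laminin receptor chain of muscle, rose from 2.78 ± 0.172 to 4.79 ± 0.540 CPM (log2 fold change 0.82, edgeR, adjusted p = 1.01e-05). ITGA3 was at 11.9 ± 0.899 CPM in WT and 13.4 ± 1.13 CPM in KO, groups that overlapped (edgeR, adjusted p = 0.163). None of these chains passed the fold threshold. Of the chains of leukocytes, ITGAE fell from 17.9 ± 1.01 to 11.8 ± 0.885 CPM (log2 fold change -0.58, edgeR, adjusted p = 4.12e-07), whereas ITGAD, ITGAL, ITGAM and ITGAX had at most 10 counts in any library. ITGA9, a receptor chain for tenascin and VCAM1, was at 0.801 ± 0.0998 CPM in WT and 0.599 ± 0.192 CPM in KO (edgeR, adjusted p = 0.360), and its sister chain ITGA4 had 1 count over all 6 libraries.

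All 6 tested beta chains differed at the adjusted p, as did 63.9% of all tested genes. ITGB3, the β3 chain that completes the vitronectin receptor with ITGAV and the platelet receptor with ITGA2B, had 36, 32 and 14 counts in WT and 2, 2 and 1 counts in KO. It was thus low in WT and at or under the floor of 3 counts in each KO library. The log2 fold change of ITGB3 was -3.96 (SE 0.427, edgeR, adjusted p = 1.17e-09), and the ratio of the summed levels, WT over KO, was 16.6 with a 95% counting interval of 6.83 to 52.5, exact binomial. ITGB4, the β4 chain that joins α6 in the hemidesmosomes of epithelia, was at 3.94, 3.04 and 3.33 CPM in WT and 8.91, 8.28 and 9.66 CPM in KO. Every KO library was at least 8.28 CPM and every WT library at most 3.94 CPM, with a log2 fold change of 1.37 (SE 0.125, edgeR, adjusted p = 3.22e-11). ITGB7, the partner of ITGAE and ITGA4, rose from 0.494 ± 0.0403 to 1.86 ± 0.207 CPM (log2 fold change 1.93, SE 0.257, edgeR, adjusted p = 8.75e-08). ITGB4 overlaps GALK1 and ITGB7 overlaps ZNF740, each on the opposite strand and with far more counts. GALK1 had a log2 fold change of -0.55 and ZNF740 of 0.06, and whether the counting used the strand is not given in the sources used here.

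The most abundant beta chains changed by less than the fold threshold. ITGB1, the common partner of most alpha chains, fell from 327 ± 13.4 to 236 ± 13.2 CPM (log2 fold change -0.47, edgeR, adjusted p = 9.14e-10). ITGB8, which pairs with ITGAV to release active TGF-β, rose from 152 ± 4.10 to 245 ± 14.95 CPM (log2 fold change 0.69, edgeR, adjusted p = 1.31e-13). ITGB5, another partner of ITGAV, was at 57.4 ± 2.50 CPM in WT and 64.5 ± 0.739 CPM in KO (log2 fold change 0.16, edgeR, adjusted p = 0.00895). This small difference had an adjusted p of 0.0519 without WT replicate 3. ITGB6 had at most 2 counts in any library. ITGB2, the leukocyte beta chain, had 4, 4 and 4 counts in WT and 23, 14 and 6 counts in KO, overlapping in CPM, and did not pass the filter.

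To compare chains with each other, CPM was divided by the exon length of the gene in kilobases (RPKM). ITGAV made up 79.1% ± 0.259 of the summed RPKM of the 18 alpha chains in WT and 55.0% ± 2.16 in KO (SD, n = 3). The sum itself fell from 132 ± 3.46 to 47.6 ± 0.915 RPKM, while that of the 8 beta chains was 42.1 ± 0.835 RPKM in WT and 44.1 ± 1.92 RPKM in KO (exact permutation test, two-sided, p = 0.3). With the canonical transcript length used further down, the beta sum was 118 ± 3.46 RPKM in WT and 108 ± 5.21 RPKM in KO (exact permutation test, two-sided, p = 0.1), so that its direction depends on the length scale. Behind ITGAV came ITGA5 and then ITGA6 in both groups, at 12.7 ± 0.129 and 7.22 ± 0.326 RPKM in WT and at 7.18 ± 0.0390 and 5.18 ± 0.155 RPKM in KO. ITGA10 rose from 0.515% ± 0.00409 to 6.84% ± 1.13 of the alpha sum, and from 0.250% ± 0.00187 to 3.80% ± 0.678 with the length of the canonical transcript (exact permutation test, two-sided, p = 0.1 each). Among beta chains, ITGB1 made up 53.3% ± 1.15 in WT and 36.8% ± 0.490 in KO, and ITGB8 23.8% ± 0.983 and 36.6% ± 0.701. ITGB1 and ITGB8 thus lay within their spread of each other in KO on this length scale. With the length of the canonical transcript in place of all exons they did not, at 58.9% ± 0.468 and 25.4% ± 0.404 in KO and 73.9% ± 0.883 and 14.3% ± 0.698 in WT, and ITGAV was at 86.8% ± 0.195 in WT and 68.9% ± 1.93 in KO. On both scales the shares of ITGAV and ITGB1 were lower, and that of ITGB8 higher, in every KO library (exact permutation test, two-sided, p = 0.1 each).

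**Figure D3:**
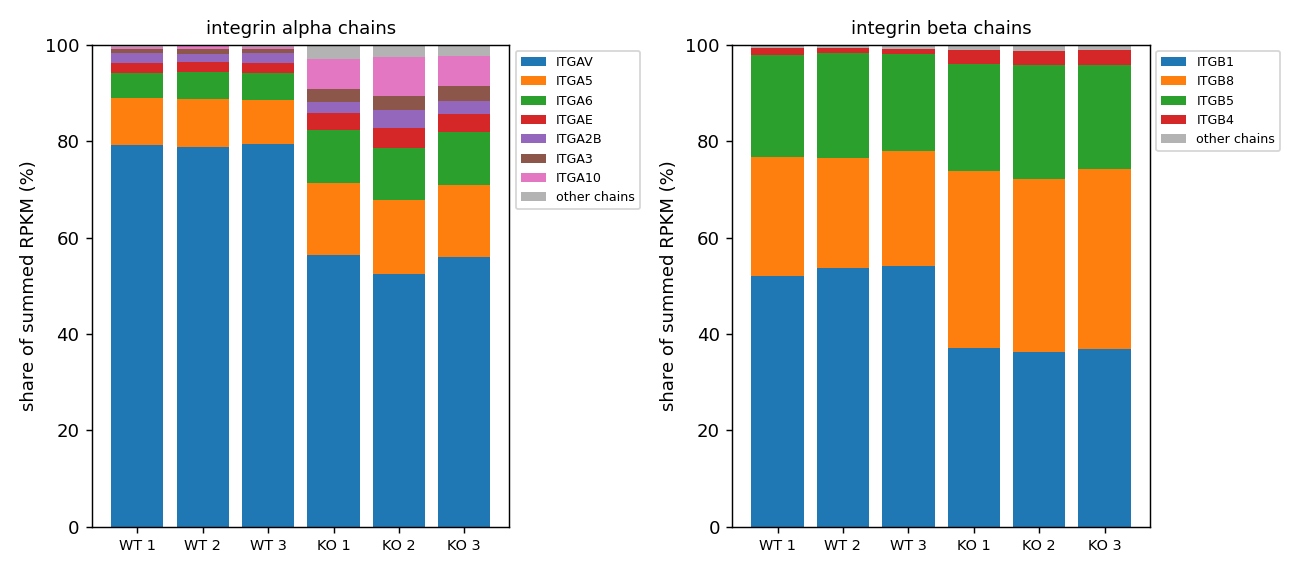
Share of the summed RPKM (percent, by exon length) that each integrin chain took in each library, alpha chains on the left and beta chains on the right. ITGAV takes 78.8% to 79.3% of the alpha sum in the WT libraries and 52.5% to 56.5% in the KO libraries, and the band of ITGB8 is wider in KO.

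Of 24 known integrin pairs, 9 had at least 10 counts for both chains in every library of both groups, among them ITGA5/ITGB1, ITGA6/ITGB1, ITGA6/ITGB4, ITGAV/ITGB5 and ITGAV/ITGB8. ITGA2/ITGB1 and ITGAE/ITGB7 met this limit in KO and not in WT. ITGAV/ITGB3, ITGA2B/ITGB3 and ITGA9/ITGB1 met it in WT and not in KO, the last of these through ITGA9, whose level did not pass the test. ITGB7 missed the limit only in WT replicate 3, the library with the fewest counts, where it had 6 counts. Its level there was 0.540 CPM, against 0.474 and 0.467 CPM in WT replicates 1 and 2, so that this miss came with the depth of the library. RNA of both chains does not show that the receptor is made.

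Among the laminins, LAMB3 showed the largest change of all 23 tested members. LAMB3, the β3 chain, belongs to the epithelial laminin that anchors hemidesmosomes. It had 1, 4 and 1 counts in WT and 165, 207 and 122 counts in KO, or 0.0365, 0.134 and 0.09005 CPM against 6.71, 7.69 and 6.85 CPM. LAMB3 was thus at the limit of detection in WT and present in each KO library. Its log2 fold change was 6.26 (SE 0.275, edgeR, adjusted p = 1.66e-19), and the ratio of the summed levels was 81.4 with a 95% counting interval of 37.1 to 223, exact binomial. LAMB3 (ENSG00000196878) lies on chromosome 1 from 209614870 to 209652425 on the minus strand.

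LAMB3 and ITGA2 were the members that went from near the floor in WT to a clear level in KO. The 250 bases before their RefSeq start sites (GRCh38.p14) are shown 5′ to 3′ because these members had the largest rises, with the motif GGGCGG, the core of a GC box, in capitals on either strand. The windows are chr1:209652426-209652675 on the minus strand and chr5:52989102-52989351 on the plus strand.
LAMB3: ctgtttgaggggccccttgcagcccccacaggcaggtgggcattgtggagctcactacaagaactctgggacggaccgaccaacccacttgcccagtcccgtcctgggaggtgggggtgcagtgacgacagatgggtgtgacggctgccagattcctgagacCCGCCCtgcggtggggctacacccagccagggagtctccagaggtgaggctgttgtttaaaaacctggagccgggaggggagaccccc
ITGA2: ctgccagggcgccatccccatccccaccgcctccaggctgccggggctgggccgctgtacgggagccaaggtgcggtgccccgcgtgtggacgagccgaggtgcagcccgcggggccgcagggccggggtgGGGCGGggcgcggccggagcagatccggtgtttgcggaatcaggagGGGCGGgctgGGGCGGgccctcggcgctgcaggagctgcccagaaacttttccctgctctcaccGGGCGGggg
The ITGA2 window held 4 GGGCGG motifs and 26 CG dinucleotides, the LAMB3 window 1 and 8. Of 35116 RefSeq windows of this length, 42.6% held GGGCGG, and the median window had 11 CG dinucleotides. Neither window held TATAAA or TGANTCA, searched like GGGCGG on both strands and present in 10.7% and 6.57% of all windows. The windows of the other up-regulated members in the table differed from that of ITGA2, with 1 CG dinucleotide in that of ITGA10 and 2 in that of ITGB7. Such matches describe the reference sequence and not the binding of a factor, and 26 of the 37 members were matched in the table.

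LAMA5, LAMC1 and LAMC3 were higher in KO and LAMB1 was lower. LAMA5, the α5 chain of the widespread epithelial laminins, was at 109.9, 118.5 and 124.6 CPM in WT and 203.6, 201.9 and 195.8 CPM in KO. The groups were well apart, with a log2 fold change of 0.77 (SE 0.0504, edgeR, adjusted p = 6.62e-15). LAMC1, the γ1 chain shared by most laminins, rose alike, from 249.6 ± 15.5 to 422 ± 13.4 CPM (log2 fold change 0.76, edgeR, adjusted p = 9.17e-15). LAMC3 rose from 39.6 ± 0.528 to 51.5 ± 2.45 CPM (log2 fold change 0.38, edgeR, adjusted p = 8.24e-07). LAMB2, the most abundant beta chain, was at 215 ± 7.37 CPM in WT and 203 ± 6.90 CPM in KO, with overlapping groups (edgeR, adjusted p = 0.153). LAMB1 fell from 33.8 ± 1.07 to 17.01 ± 0.626 CPM, and its log2 fold change of -0.99 (SE 0.0679, edgeR, adjusted p = 2.62e-14) lay just inside the fold threshold.

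LAMA1, the α1 chain of the first laminin of the embryo, was low in both groups. It was at 1.97, 2.27 and 1.89 CPM in WT and 0.529, 1.11 and 1.01 CPM in KO. KO replicate 1 was the lowest of all, and without it the log2 fold change was -0.95 in place of -1.24 (SE 0.236, edgeR, adjusted p = 3.16e-05) and no longer past the threshold. LAMA2, LAMA4 and LAMB4 were at 0 in all 6 libraries, which allows up to 3 counts in each, and LAMA3, the alpha chain that joins LAMB3 in the epithelial laminin, had at most 9 counts. On the RPKM scale LAMA5 accounted for 98.3% ± 0.295 of the alpha chain sum in WT and 99.5% ± 0.170 in KO, and LAMB2 for 94.4% ± 0.339 and 92.4% ± 0.235 of the beta chain sum. With the canonical transcript length the LAMB2 share was 86.3% ± 0.725 in WT and 88.2% ± 0.259 in KO, so that the direction of its difference turned with the length scale. LAMB3 made up 4.75% ± 0.210 of the beta chain sum in KO. Of 13 trimers whose chains are all in the set, 5 had at least 10 counts for each chain in every library of both groups, namely LAMA5 with LAMB1 or LAMB2 and LAMC1, LAMA5 with LAMB2 and LAMC3, and LAMA1 with LAMB1 or LAMB2 and LAMC1. The other 8 met this limit in neither group.

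The basement membrane partners of laminin changed in both directions. Of 11 such genes 9 were tested, and all 9 passed the adjusted p, 3 higher and 6 lower in KO, where 31.9% and 32% of all tested genes were, with a median log2 fold change of -0.55, against 0.00 over all tested genes. Past both thresholds 2 were up-regulated and 2 down-regulated, where 8.3% and 7.73% of all tested genes were. NID1, nidogen 1, which links laminin to collagen IV, had 1277, 1615 and 571 counts in WT and 8, 8 and 5 counts in KO, from 50.6 ± 3.71 to 0.301 ± 0.0226 CPM. Its log2 fold change of -7.36 (edgeR, adjusted p = 7.22e-30) was larger than that of any laminin chain. NID1 passed the filter through WT, which already required a difference. Its relative NID2 fell from 15.7 ± 1.14 to 4.83 ± 0.299 CPM (log2 fold change -1.72, edgeR, adjusted p = 5.15e-16). COL4A6, a collagen IV chain of epithelial basement membranes, rose from 0.574 ± 0.225 to 10.9 ± 0.790 CPM (log2 fold change 4.15, edgeR, adjusted p = 7.53e-20). HSPG2, perlecan, was up-regulated by a log2 fold change of 1.02 (edgeR, adjusted p = 5.75e-17), which was under 1 without WT replicate 1. COL4A1 and COL4A2, the chains found in nearly all basement membranes, fell by 0.72 and 0.55 on the log2 scale.

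**Figure D4:**
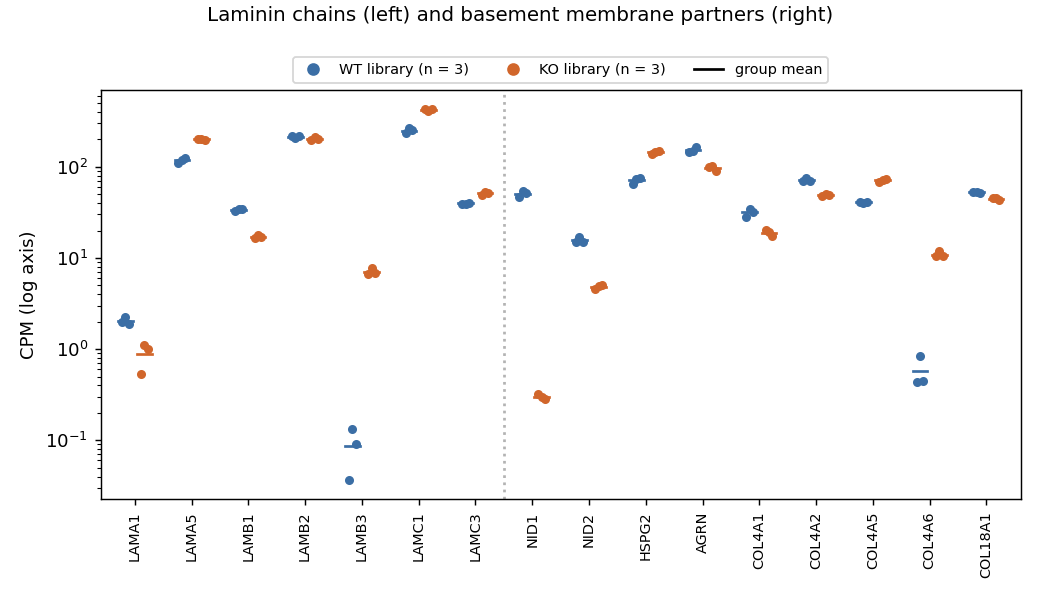
Level in CPM, on a log axis, of the tested laminin chains (left of the dotted line) and of the tested basement membrane partners (right), with a point per library and a bar at each group mean. LAMB3 and COL4A6 are higher in KO, and NID1 falls to 0.301 CPM.

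Of 19 further integrin ligands, 8 were tested, 1 was up-regulated and 3 were down-regulated, where 8.3% and 7.73% of all tested genes were, with a median log2 fold change of -0.41. COL1A1, the α1 chain of collagen I, fell from 629 ± 25.1 to 122 ± 9.98 CPM (log2 fold change -2.37, edgeR, adjusted p = 2.98e-27). Thrombospondin 1 (THBS1) fell from 57.5 ± 4.92 to 14.7 ± 0.369 CPM, and vitronectin (VTN), the ligand that gave the ITGAV receptors their name, from 0.9725 ± 0.0862 to 0.257 ± 0.126 CPM. VTN had 8, 9 and 2 counts in KO and passed the filter through WT, which already required a difference. Fibrillin 1 (FBN1) rose from 66.2 ± 6.23 to 140 ± 8.22 CPM. Below the fold threshold, fibronectin (FN1), the ligand of the ITGA5 receptor, rose from 6.26 ± 0.559 to 10.6 ± 0.374 CPM and MFGE8, an RGD ligand of ITGAV receptors, from 113 ± 6.07 to 196 ± 9.35 CPM. COL3A1, the most abundant of the list, was at 6006 ± 148 CPM in WT and 5960.1 ± 106 CPM in KO (edgeR, adjusted p = 0.863). Of the other laminin receptors, 6 were tested. BCAM, SDC1 and SDC4 were down-regulated and 0 up-regulated, where 7.73% and 8.3% of all tested genes were. The median log2 fold change of these receptors was -0.75, against 0.00 over all tested genes. SDC1, syndecan 1, fell from 227 ± 9.35 to 84.2 ± 3.68 CPM (log2 fold change -1.43, edgeR, adjusted p = 4.63e-22). Dystroglycan (DAG1) differed by a log2 fold change of -0.17.

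Inside the cell, integrins are held by an adhesion complex, of which 33 of 37 listed genes were tested. In KO 2 were up-regulated and 6 down-regulated, and at the adjusted p alone 6 were higher and 17 lower, with a median log2 fold change of -0.17. Over all tested genes these shares were 8.3% and 7.73% past both thresholds and 31.9% and 32% at the adjusted p alone, and the share of the complex that was up-regulated, 6.06%, was under the first of them. FERMT2, kindlin 2, which activates integrins together with talin, fell from 471 ± 4.94 to 14.2 ± 0.856 CPM (log2 fold change -5.06, SE 0.0606, edgeR, adjusted p = 2.02e-35). Among kindlins, FERMT3, that of blood cells, rose from 0.331 ± 0.181 to 0.708 ± 0.128 CPM, and FERMT1, that of epithelia, was at 0 in all libraries. NEDD9, a docking protein, fell from 3.88 ± 0.554 to 0.0582 ± 0.0222 CPM. NEDD9, with at most 2 counts per KO library, passed the filter through WT, and FERMT3 mainly through KO. For both, presence among the tested genes already favoured a difference. The tensins, which bind the tail of the beta chain, moved in opposite directions. TNS3 fell from 12.1 ± 1.31 to 1.22 ± 0.0624 CPM (log2 fold change -3.28, edgeR, adjusted p = 1.92e-19), and TNS4 rose from 4.27 ± 0.786 to 45.9 ± 2.43 CPM (log2 fold change 3.36, edgeR, adjusted p = 1.32e-25). Paxillin (PXN), an adaptor of focal adhesions, fell from 261 ± 7.85 CPM by 1.53 on the log2 scale (edgeR, adjusted p = 3.53e-23). Talin 1 (TLN1) and focal adhesion kinase (PTK2) had log2 fold changes of 0.00 and 0.01 (edgeR, adjusted p = 0.979 and 0.842).

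Several mesenchymal markers were lower in KO, whereas the matrix genes FBN1 and FN1 named above rose and COL3A1 did not differ. The summed level of 8 fibroblast and endothelial markers was 98.4 to 101 CPM in WT and 15.9 to 18.8 CPM in KO, mainly PDGFRA, a growth factor receptor of mesenchymal cells. Of the 5 tested, 4 were down-regulated and VWF was up-regulated, where 7.73% and 8.3% of all tested genes were. DCN and LUM, at 0 in all KO libraries, passed the filter through WT and VWF through KO, which already required a difference. With at least 10 counts in every library, or after thinning to the smallest total, 2 were down-regulated and 0 up-regulated. Vimentin (VIM) fell from 7235 ± 165 to 1489 ± 11.4 CPM. The part of such a shift in the levels of ITGAV, ITGB3, COL1A1 and NID1 was not tested.

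The position of the called members was examined through the tested genes whose start lay within 1 Mb. ITGAV was the only one of the 8 whose nearest tested genes on both sides were called in its own direction. ZC3H15 on one side fell from 889 ± 21.7 to 294 ± 5.43 CPM (log2 fold change -1.59, edgeR, adjusted p = 2.69e-24), and FAM171B on the other from 1133 ± 21.0 to 513 ± 37.2 CPM (log2 fold change -1.14, edgeR, adjusted p = 3.35e-19). Of the 10 tested genes within 1 Mb of ITGAV, 4 were down-regulated and 2, at the far end, up-regulated. Over all tested genes these shares were 7.73% and 8.3%. The up-regulated ones were CALCRL, a receptor of adrenomedullin, by a log2 fold change of 1.51 and TFPI, a coagulation inhibitor, by 3.88. Near ITGB7, 4 of 46 tested genes within 1 Mb were up-regulated and 4 down-regulated. These numbers were close to the shares of 8.3% and 7.73% over all tested genes. MIR205HG, the nearest tested gene on one side of LAMB3, rose from 0.131 ± 0.0581 to 0.691 ± 0.0961 CPM (log2 fold change 2.48, edgeR, adjusted p = 1.39e-05). It was near the floor in WT and passed the filter through KO, which already required a difference. C1orf74 on the other side of LAMB3 had a log2 fold change of -0.03. Neither neighbour of ITGA2, ITGB3, ITGB4, ITGB7 or LAMA1 was called.

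**Figure D5:**
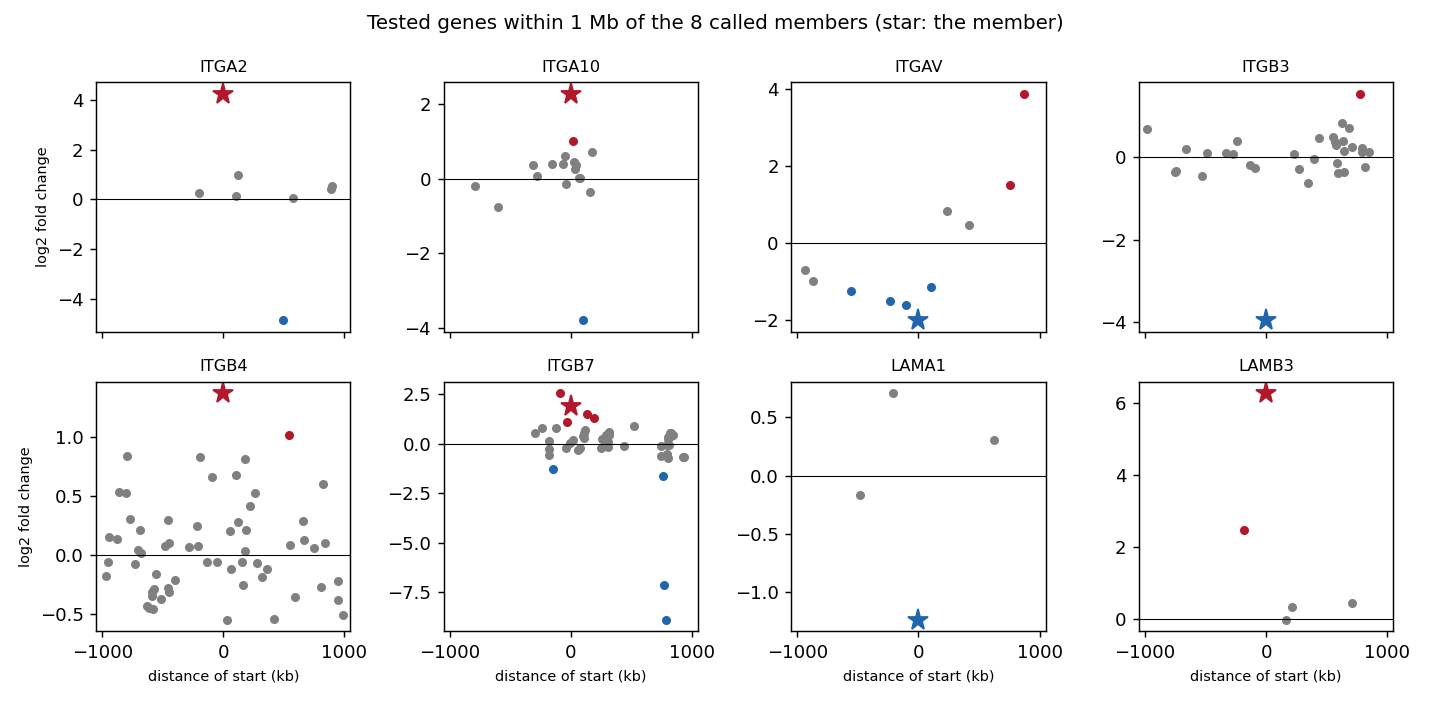
Log2 fold change, KO over WT, of the tested genes by the distance of their start from that of each called member (kb), with the member as a star. Red points are up-regulated, blue points down-regulated and grey points not past both thresholds, and the vertical scale differs between panels. The genes nearest to ITGAV are down-regulated on both sides.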

How the data were processed

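RNA-Seq of A2780 WT and CDK12 KO cells, 3 libraries each, was analysed. Groups follow the genotype given for each library. The authors deposited raw counts per Ensembl gene, made per the labels and the paper's methods with FastQC, STAR alignment to GRCh38 and HTSeq-Count from stranded single-end reads of 75 bases. Versions, annotation release and strand setting are not given in the sources used here. Of 60483 identifiers 56321 matched GENCODE release 44, which gave symbols, positions and exon lengths, and all 37 members matched.

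The test of KO against WT used edgeR 4.0.16 under R 4.3.3 (filterByExpr with a minimum count of 10 and total of 15, TMM, quasi-likelihood test, two-sided) over 16198 genes. The biological coefficient of variation was 4.35%. Thresholds follow the paper's methods. The alternatives were voom/limma (limma 3.58.1), DESeq2 1.42.0, other normalizations and filters, thinning to 11098400 counts and the omission of each library. The tests were checked on simulated counts. Members and lists were chosen with earlier results of these data known. All members are reported, and list genes are named when past both thresholds, at most 4 per direction, others being chosen after their values were seen. The neighbours of 1 member are not reported here. The window of 1 Mb and the canonical transcript length were added after the data were seen. Python 3.11.15 with scipy 1.17.1 was used for the rest.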

Additional observations from a re-analysis of the deposited data

How the results depend on the processing

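The log2 fold changes of the tested members kept their direction under the 13 alternatives wherever they were tested, and 155 of 155 values from the 7 alternatives with all libraries kept their call, which needs both thresholds, against 134 of 138 when a library was left out. The exceptions were LAMA1 without KO replicate 1 (-0.95), ITGA2B without KO replicate 2 (-1.02), and LAMB1 without KO replicate 2 (-1.02) or WT replicate 1 (-1.02). ITGB5, not called at any setting, had an adjusted p of 0.0519 without WT replicate 3. Leaving out a library gave 5 to 6 up-regulated and 2 to 5 down-regulated members. With at least 10 counts in every library, 2 members were up-regulated, because ITGA2, ITGB7 and LAMB3 were not tested there, and 2 were down-regulated, without ITGB3. A test against the fold threshold itself left 2 down-regulated members. At the adjusted p alone, 8 to 12 members were higher and 8 to 9 lower. Under the minimum of 10 counts, the basement membrane partners had 1 up-regulated and 1 down-regulated gene, and the adhesion complex 1 up-regulated gene, as it had after thinning. The other ligands had 3 up-regulated genes with no filter. Leaving out a library gave 1 to 2 up-regulated basement membrane partners, 1 without WT replicate 1, and 1 to 2 up-regulated ligands, 2 without KO replicate 3 or WT replicate 3. No paired analysis was possible because the labels pair no WT library with a KO library. Depth limits the members near the floor, and WT replicate 3 had the fewest counts.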

Other observations

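ITGB2 did not pass the filter when all libraries were used. It was tested with no filter and when KO replicate 3 or any WT library was left out, with log2 fold changes of 1.54 to 2.11 and adjusted p of 3.77e-04 to 0.0161 (edgeR). Where a library was left out, ITGB2 passed the filter through KO, so that being tested already favoured a difference. KO replicate 3, with 6 counts, lay within the WT range in CPM.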
